A study of Drosophila melanogaster with 6 samples.

Results

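The genes described here are those at least 2-fold lower in fly embryos whose shaggy gene had lost its caspase recognition sites. They were chosen by a rule on the read counts, expressed per 1000000 counted reads of each library (CPM). A gene was kept when its mean over the 3 control libraries was at least 1 CPM, when that mean was at least 2 times the mutant mean, and when the highest mutant library lay below the lowest control library. The rule kept 134 of the 17493 genes in the count table, or of the 9966 genes with a mean control level of at least 1 CPM. Because the members were selected on this contrast, the difference between the lines is given for them as a description, and nothing is read from its direction or from the calls that a fit over all genes made for them.

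RNA was sequenced from whole Drosophila melanogaster embryos aged 10 to 15 hours, in 3 separate collections from each of 2 homozygous lines. Both lines were made by CRISPR-Cas9 at shaggy (sgg), and both carry a DsRed tag at the protein's N-terminus and an internal StrepII-Flag-StrepII tag. The control line, sgg[isoD-DS-SFS], has no other change, and the mutant line, sgg[isoD-CI-DS-SFS], is also altered at 2 consensus caspase recognition sites. The lines are 1 stock each, and the altered sites and other differences between those stocks cannot be told apart. Untagged embryos were not analysed here. The counted reads ranged from 12646077 to 19454630 per library. In whole embryos, fewer cells of a type and less RNA per cell cannot be told apart.

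Shaggy is the fly glycogen synthase kinase 3, a serine/threonine kinase that holds back Wingless signalling and acts in many other pathways, and caspases are proteases best known from cell death. At the ages sampled, the embryonic epidermis is covering itself with an apical extracellular matrix, from which the larval cuticle and its denticles will form. Zona pellucida domain proteins are membrane-anchored components of that matrix, each shaping its own part of the epidermal surface. A pulse of the steroid hormone ecdysone occurs in mid-embryogenesis, and many epidermal genes respond to it in other stages. The sgg gene itself was counted at 287, 310 and 323 CPM in the control collections and at 307, 294 and 304 CPM in the mutant collections. Its values in the lines overlapped, and no member lay within 1 Mb of it in the annotation.

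The members covered a wide range of levels. Their mean control values ran from 1.01 to 929.6 CPM with a median of 7.52 CPM, and 71 of the 134 lay under 10 CPM. The ratio of the control mean to the mutant mean had a median of 2.48. It was under 3 in 101 members, between 3 and 4 in 18, and at least 4 in 15. The members nearest to the threshold were grim, a cell death activator, and xmas-1, both at a ratio of 2.00, and St4, a sulfotransferase gene, at 2.01. Just outside lay vri, a bZIP transcription factor gene, at 1.99, with CG2321 and CG10793 at 1.98. A further 14 genes were 2-fold lower in the mutant mean but overlapped between the lines. The mirror rule, for genes higher in the mutant line, kept 435 genes.

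**Figure D1:**
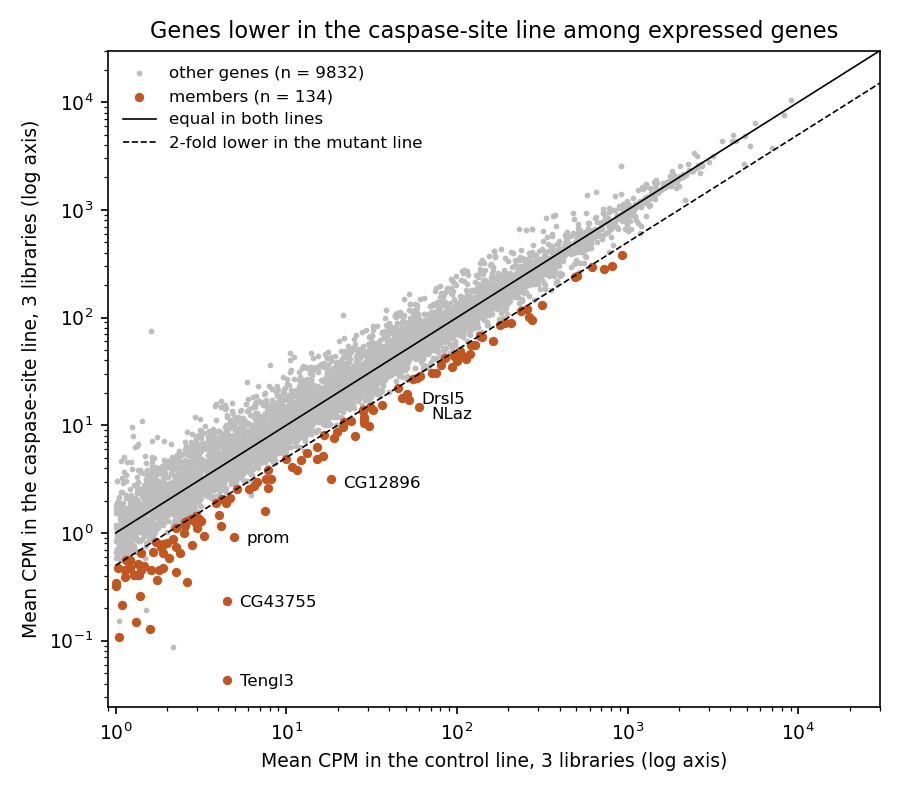
Mean CPM of each gene in the control line (x) and the caspase-site line (y), both on log axes, for the 9966 genes with a mean control level of at least 1 CPM. The 134 members lie below the dashed 2-fold line, most of them close to it, with Tengl3, CG43755 and CG12896 farthest below among those named.

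The edgeR quasi-likelihood test was fitted to all 10526 genes with enough reads, adjusted after Benjamini and Hochberg, and calls were made at an adjusted p under 0.05. It called 113 of the 133 members it tested lower in the mutant line and made no call for 20, against a background in which 22.3% of all tested genes were called in either direction. By direction, 8.67% of all tested genes were called lower and 13.7% higher. With scaling by library size alone the same test called 1272 genes lower and 1268 higher, in place of 913 and 1437. The median log2 fold change was -1.26 over the tested members and -0.01 over all tested genes. Since the rule used this contrast, these counts describe the members and are not evidence about them. Among the 20 members without a call were neo, sc, sing, Ugt35C1, tut, DJ-1alpha, gom and yellow-e3. CG14400 had too few reads to be tested.

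Levels of different genes were compared as CPM per kilobase of annotated exon. On that scale the highest members in the control line were CG9184 at 834, ImpL1 at 585, ImpE2 at 544 and CG10591 at 256. ImpE2 and ImpL1 belong to the Imp genes, which were found as ecdysone-inducible transcripts of imaginal discs and encode secreted or membrane proteins. The set also holds CG6118, CG12009 and dsx-c73A among its 10 most counted genes, with mean control levels of 618, 505 and 257 CPM. The roles of these 3 genes are not described here.

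Of the Imp genes, 3 were members. ImpE2 stood at 1205, 866 and 718 CPM in control collections 1, 2 and 3, and at 451, 305 and 392 CPM in the mutant collections. ImpL1 stood at 926, 678 and 564 CPM in the control and at 326, 228 and 289 CPM in the mutant collections. In both genes control collection 1 was the highest and mutant collection 2 the lowest of the 6 libraries, and the ratios of the means were 2.43 and 2.57. ImpE1, which encodes a protein with low-density lipoprotein receptor repeats, had 595, 448 and 432 CPM against 222, 245 and 253 CPM, a ratio of 2.05. Of the other Imp genes tested, ImpL2, which encodes a secreted insulin-binding protein, was called lower at a log2 fold change of -0.32 and ImpE3 was not called at -0.47.

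Among the members were 5 zona pellucida domain genes of the apical matrix. Miniature (m) and dusky (dy) are needed for the shape of wing cells, and neyo (neo), morpheyus (mey) and nyobe (nyo) act in the shaping of embryonic denticles. The gene mey was counted at 407, 293 and 246 CPM in the control collections and at 181, 83.7 and 124 CPM in the mutant collections. The gene neo was counted at 231, 175 and 133 CPM against 122, 44.4 and 88.8 CPM. Mutant collection 2 was the lowest library of both genes and control collection 1 the highest, and for neo mutant collection 1 came close to control collection 3. The gene nyo had 243, 176 and 152 CPM against 94.2, 73.4 and 101 CPM. The gene m had 172, 129 and 111 CPM against 79.8, 54.4 and 69.9 CPM, a ratio of 2.02. The gene dy was the least abundant of the 5 per kilobase, at 7.57 CPM per kilobase in the control line. Its mutant libraries were nearly equal, at 15.0, 14.8 and 14.5 CPM, below control values of 38.0, 30.1 and 24.4 CPM.

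The rest of this gene family did not move one way. A list of 13 zona pellucida domain genes was drawn up after the members were seen, so its counts are a description. Of the 8 that were not members, edgeR's quasi-likelihood test called 3 lower, 2 higher and 3 neither. Those lower were tyn, dyl and nompA, with log2 fold changes of -0.94 ± 0.21, -0.62 ± 0.14 and -0.32 ± 0.07 (SE). Those higher were zye and pot, with log2 fold changes of 1.02 ± 0.29 and 0.46 ± 0.08 (SE). The gene tyn, which also acts in denticle shaping, fell short of membership at a control mean of 358 and a mutant mean of 182 CPM.

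Further members were grouped as other epithelial genes, most of them acting at the apical surface, in tubes or at attachment sites. Shavenoid (sha), which organises actin in hairs and denticles, stood at 77.2, 52.5 and 46.4 CPM in the control and at 35.9, 18.4 and 27.8 CPM in the mutant collections. Narrow (nw), which encodes a secreted C-type lectin-like protein of wing shaping, stood at 147, 129 and 80.3 CPM against 60.8, 29.4 and 47.2 CPM. Masquerade (mas), a secreted protease-like protein needed for muscle attachment, stood at 136, 104 and 84.9 CPM against 56.5, 26.2 and 48.8 CPM. In all 3 genes the order of the libraries was the same, with control collection 3 the lowest control and mutant collection 2 the lowest of all. Wurst (wus), which acts in endocytosis during airway maturation, had a ratio of 2.14. Twisted (tw), a protein O-mannosyltransferase gene placed in this group without such a site of action, had a ratio of 2.03. Rab23, a GTPase gene of planar polarity, had one of 2.14. In a list of denticle and hair genes also drawn up after the members were seen, 3 of the 7 tested that were not members were called lower by edgeR's quasi-likelihood test and the other 4 neither way. Those were mwh, f and sn, which encode actin regulators, at log2 fold changes of -0.61 ± 0.14, -0.43 ± 0.09 and -0.39 ± 0.06 (SE).

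**Figure D2:**
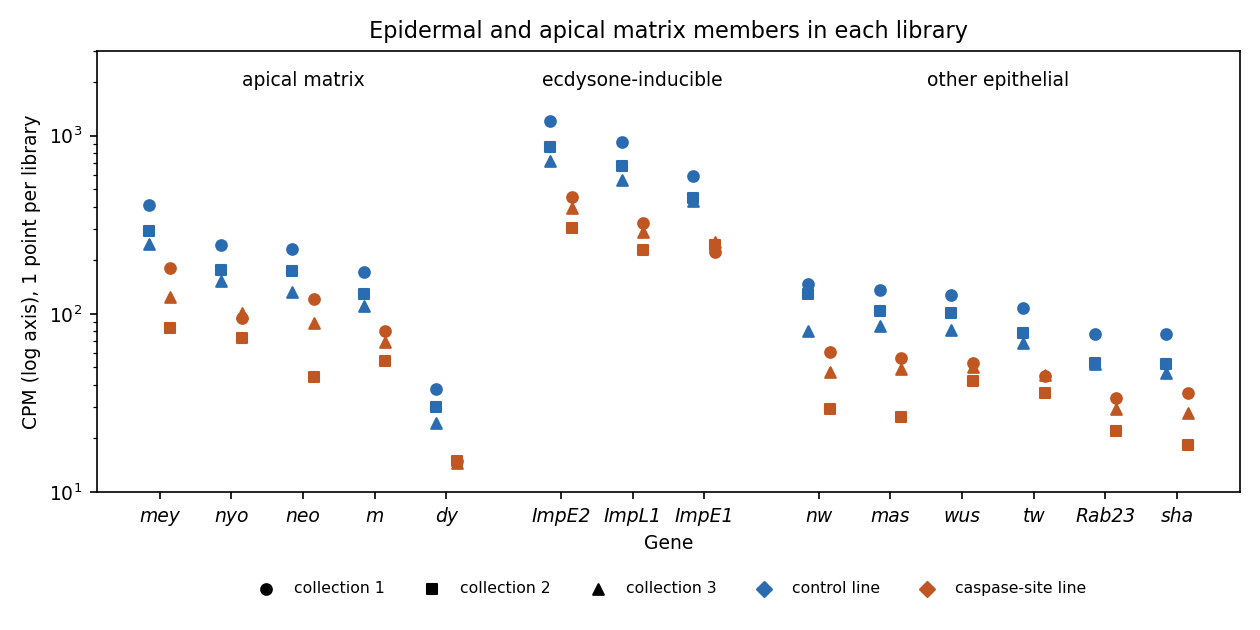
CPM of 14 apical matrix, ecdysone-inducible and other epithelial members in each of the 6 libraries, on a log axis. Control libraries are in blue, caspase-site libraries in orange, and the marker shape gives the collection number. Control collection 1 (blue circles) is the highest library of every gene shown, and mutant collection 2 (orange squares) is the lowest in most.

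Membership of these epithelial genes depended on control collection 1. Without that library the rule kept 106 genes, of which 87 were among the 134. Of the 5 apical matrix genes 1, mey, was kept, of the 3 Imp genes 2, and of the 6 other epithelial genes 2, nw and mas. Without mutant collection 2 the rule kept 135 genes, 110 of them members, including 2 of the 5 apical matrix genes and 3 of the 6 other epithelial genes. With CPM rescaled by edgeR's trimmed mean of M-values, m, tw and ImpE1 fell below the 2-fold line, and 112 members remained in all.

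The order of the libraries within each line was shared by most well-counted members. The rule did not use that order, although a high control library or a low mutant library adds to the ratio it used. Of the 63 members with a mean control level of at least 10 CPM, control collection 1 was the highest control library in 56, or 88.9%, against 38.1% of the 7440 genes at that level. Control collection 3 was the lowest in 52 of the 63, or 82.5%, against 32.8%. Mutant collection 2 was the lowest mutant library in 41, or 65.1%, against 42.2%. Both held in 40 of the 63, or 63.5%, against 12.2% of all genes at that level. Of genes called lower that were not members, 754 were at 10 CPM or more. Among these, control collection 1 was the highest control library in 65.65%. Control collection 3 was the lowest control library in 44.0%, mutant collection 2 the lowest mutant library in 38.5%, and both of these held in 15.3%. No test was made of these shares, since genes are not independent replicates.

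The step between collections was also measured by its size. The median ratio of control collection 1 to control collection 3 was 1.52 over the 63 members and 0.995 over all genes at 10 CPM or more. The median ratio of mutant collection 1 to mutant collection 2 was 1.24 against 1.02. Over the 754 non-members called lower at 10 CPM or more, these medians were 1.07 and 0.994. A high control collection 1 or a low mutant collection 2 adds to the ratio that chose the members. Among the 40 genes with the shared order were neo, mey, nyo, m, sha, nw, tw, mas, wus, Rab23, ImpE2 and ImpL1. They also included spz6, Ama, C901, Jhbp2, Alp1, hll and gsb-n. Of the 71 members under 10 CPM, 19.7% had both.

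Some lists of marker genes of embryonic age and tissue also differed between the lines, where 22.3% of all tested genes were called in either direction. A list of 20 late cuticle and tanning genes summed to 22140 to 24780 CPM in the control libraries and to 17270 to 20140 CPM in the mutant libraries. Within it edgeR's quasi-likelihood test called 5 genes lower and 4 higher, with a median over its genes of 0.12 on the log2 scale. Osi6 and Osi7 fell from means of 7030 and 4817 CPM to 3748 and 2661 CPM. The other 18 genes summed to 10730 to 11740 CPM in the control and 11970 to 12890 CPM in the mutant libraries. This split was made after the values were seen, and the 18 did not move one way. Among them TwdlM rose from a mean of 918 to 2574 CPM, while ect fell from 2168 to 1239 CPM. A list of 12 muscle genes summed to 28050 to 30840 CPM in the control and 34330 to 34800 CPM in the mutant libraries, with 9 called higher and 3 neither way. Of 15 tested genes of the blastoderm and early patterning, 5 were called lower and 10 neither way. The 20 genes of that list in the count table, tested or not, summed to 299 to 308 CPM against 262 to 271 CPM. Other tissue lists had few calls or were mixed. Of 7 glial, 6 tracheal and 11 germ cell genes tested, 1 of each list was called. Of 12 hemocyte genes tested, 3 were called lower and 3 higher, and of 12 neuronal genes 1 lower and 5 higher. None of these genes was a member. The part of embryonic age or cell makeup in the members' levels was not tested.

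**Figure D3:**
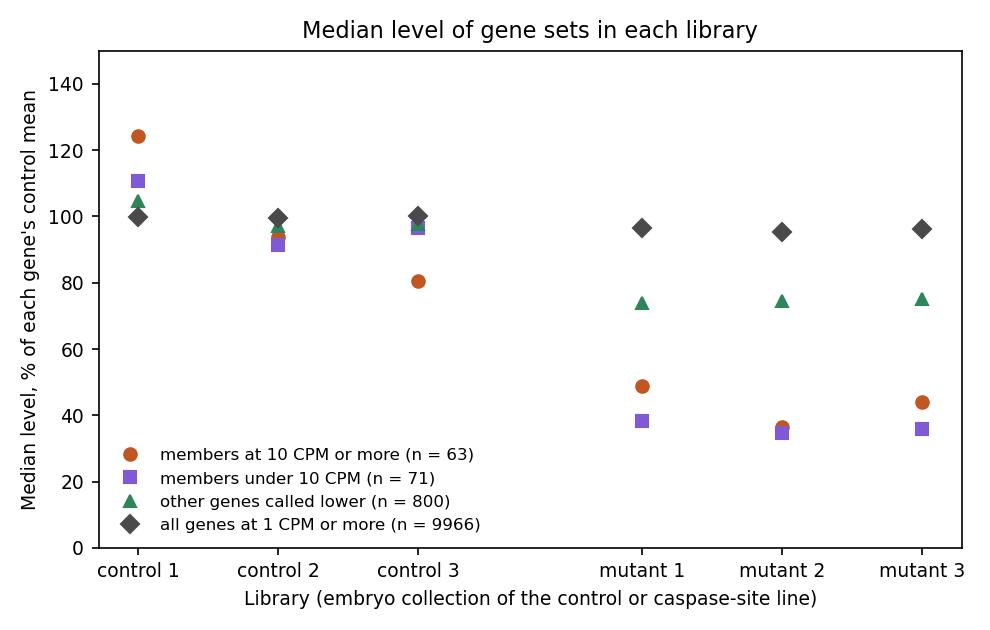
Median level of 4 gene sets in each library, as a percentage of each gene's control mean. Members at 10 CPM or more (orange) were at 124% in control collection 1 and 80.5% in control collection 3, while the median of all genes at 1 CPM or more (dark) stayed between 95.4% and 100.0%.

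Signalling and adhesion members shared part of that pattern. The ligand gene spz6, of the spätzle family of neurotrophin-like secreted proteins, stood at 122, 92.3 and 64.2 CPM in the control and at 53.0, 17.0 and 35.0 CPM in the mutant collections. Amalgam (Ama), a secreted immunoglobulin-domain ligand of the adhesion protein Neurotactin, stood at 115, 105 and 79.0 CPM against 44.9, 29.4 and 44.4 CPM. Both had mutant collection 2 as the lowest library. Of the other 4 spätzle family genes, spz4 was called lower at a log2 fold change of -0.66 ± 0.17 (SE) by edgeR's quasi-likelihood test, spz3 and spz5 were called higher at 1.03 ± 0.18 and 0.80 ± 0.14 (SE), and spz was not called. Dtg, a target gene of the BMP ligand Decapentaplegic, had a ratio of 2.18 at a control mean of 121 CPM. ItgaPS4, an integrin alpha subunit gene, had a control mean of 1.89 CPM and a ratio of 2.90. It overlaps the exons of Trpm on the opposite strand, which was at 96.4 CPM in the control and 98.2 CPM in the mutant line. C901 had a ratio of 2.73 at a control mean of 28.5 CPM. It shares exon sequence with Myo10A on the opposite strand, which was itself called lower, from 374 to 262 CPM.

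A small group of members acts in Notch signalling and neural fate. Tom and Ocho encode Bearded family proteins, which restrain Notch signalling by acting on the ubiquitin ligase Neuralized. Tom was counted at 37.5, 34.0 and 25.0 CPM in the control and at 16.1, 13.9 and 11.6 CPM in the mutant collections. Ocho was counted at 6.17, 3.50 and 4.39 CPM against 1.98, 2.24 and 2.07 CPM. Neither gene had mutant collection 2 as its lowest mutant library together with control collection 3 as its lowest control. Of the 5 other family genes tested, E(spl)malpha-BFM was called lower at a log2 fold change of -0.91 and 4 were not called, Brd among them at 0.08. Insensible (insb), a nuclear co-repressor of Notch targets, had 12.7, 10.6 and 8.95 CPM against 3.50, 4.92 and 3.81 CPM. The proneural gene scute (sc) was at 1.19, 0.822 and 1.61 CPM against 0.594, 0.320 and 0.517 CPM, close to the lower limit of the rule.

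Members of nerve and muscle were few and mostly at low levels. Arc1, a retrovirus-like capsid gene active in neurons, was the highest, at 239.7, 313 and 244 CPM in the control and at 92.4, 118 and 91.7 CPM in the mutant collections. Collection 2 was the highest in both lines, unlike in the epithelial genes above, and the ratio was 2.63. Prominin (prom), which encodes a membrane protein of photoreceptor rhabdomeres in adults, was at 5.06, 4.94 and 4.84 CPM in the control, the control values closest together for their level among all members. In the mutant line it was at 0.726, 1.34 and 0.710 CPM, a ratio of 5.34. The channel gene ppk13, of the pickpocket family, had a ratio of 3.58. The myoblast fusion gene sing, the mesodermal homeobox gene Six4 and the paired-type homeobox gene gsb-n had ratios of 2.50, 2.03 and 2.07. Of these, only Arc1 and gsb-n exceeded 10 CPM in the control mean.

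**Figure D4:**
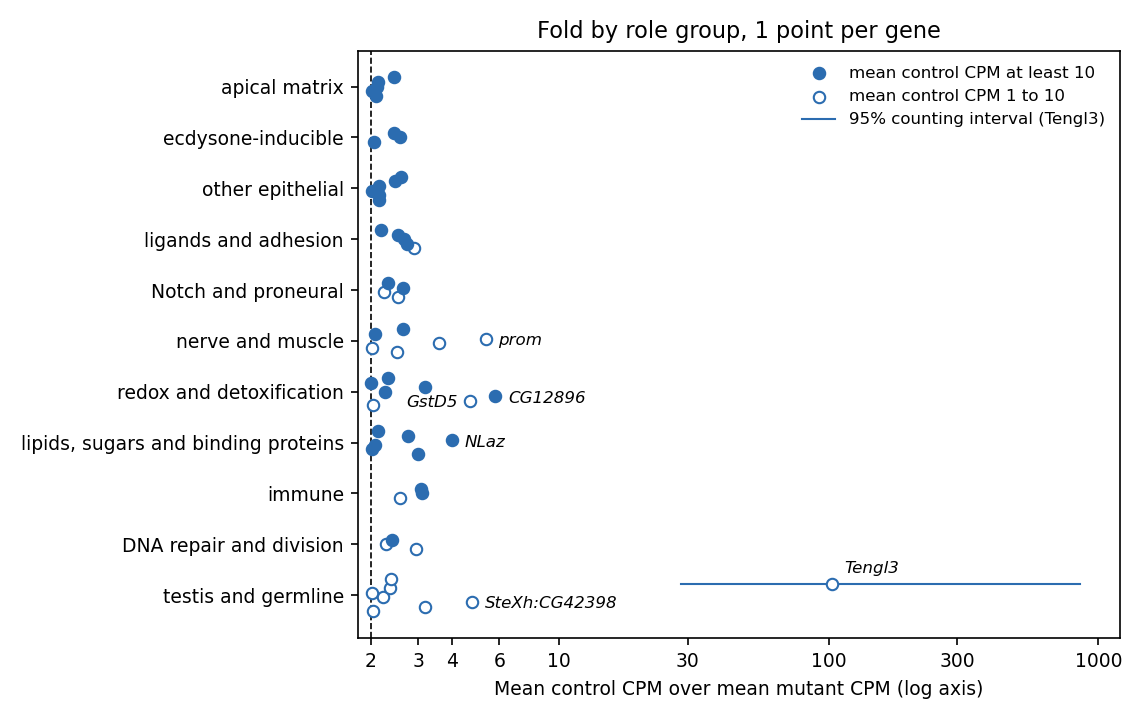
Ratio of mean control to mean mutant CPM (log axis) for the members placed in 11 role groups, 1 point per gene, filled where the control mean is at least 10 CPM. The apical matrix, ecdysone-inducible and other epithelial genes lie between 2.02 and 2.59, and Tengl3 is drawn at its pooled ratio of 103 with the 95% counting interval.

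A run of 4 adjacent members lay on chromosome 2R. Prx6c, CG11825, Prx6b and CG12896 lie within 9.20 kb, at 2R:10418718-10427915 in Ensembl release 115 of the BDGP6 assembly, and 1 other gene, CG33474, lies inside that stretch. CG33474 overlaps the exons of CG11825 on the opposite strand, and it was at 0.743 CPM in the control and 1.24 CPM in the mutant line and was not called. Prx6b and Prx6c encode peroxiredoxins, enzymes that remove peroxides. Prx6c was counted at 74.3, 82.4 and 57.5 CPM in the control and at 24.8, 28.6 and 38.8 CPM in the mutant collections. Prx6b was counted at 26.3, 30.2 and 19.6 CPM against 6.0, 6.01 and 11.9 CPM. CG12896 was counted at 18.4, 21.5 and 15.0 CPM against 2.64, 2.11 and 4.71 CPM, a ratio of 5.80 and the largest of the run. In these 3 genes control collection 2 was the highest control and mutant collection 3 the highest mutant library. Prx6b and CG12896 have the same annotated exon length, 848 bases, and Prx6c has 856. Whether reads are shared among the 3 was not examined, so their common order may not be 3 separate observations. Control collection 1 was instead the highest for each of the apical matrix, ecdysone-inducible and other epithelial genes above. CG11825 had 10.6, 16.8 and 12.1 CPM against 6.20, 5.24 and 5.23 CPM. Of the 4 other tested genes with a peroxiredoxin symbol, edgeR's quasi-likelihood test called Prx2 higher at a log2 fold change of 0.48 and the other 3 neither way. That list was drawn by symbol and did not hold CG12896.

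Members lay close to each other in several other places. Of the 131 members with a position, 31, or 23.7%, had another member within 20 kb, and 657 of 9756 other genes at 1 CPM or more, or 6.73%, lay that near to one. The 31 genes fell into 13 groups. The gene pair m and dy lie 0.261 kb apart on X, and ImpL1 and CG14110 lie 0.790 kb apart on 3L. Tom, Ocho and lncRNA:marge share 8.29 kb of 3L, where the Bearded gene Brd between them was not called. CG17782, CG17781 and CG17780 share 14.3 kb of 3R, and tut, eIF4E3 and CG7213 share 31.0 kb of 3L. The remaining pairs were CG34454 with CG34453, CG12009 with Drsl5, Dtg with CG14395, Arc1 with CG34443, Muc30E with TbCMF46, tw with CG13358, and lncRNA:CR45517 with lncRNA:CR44471. Whether neighbouring copies of alike sequence share reads was not examined here.

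Detoxification and metabolic members were single genes of families that mostly went the other way or were not called. GstD5, a glutathione S-transferase gene, was at 5.85, 11.3 and 5.34 CPM in the control and at 2.18, 1.28 and 1.36 CPM in the mutant collections, a ratio of 4.67. Of the 31 other glutathione S-transferase genes tested, 9 were called higher by edgeR's quasi-likelihood test and 22 neither way. Ugt35C1, a UDP-glycosyltransferase gene, had a ratio of 2.04 and was itself not called, while 14 of the other 30 genes of its family were called higher and 16 neither way. Mal-B1, a maltase gene, had a ratio of 2.02, while 6 of 8 other maltase genes were called higher. Cyp4e1, a cytochrome P450 gene, had a ratio of 2.26 and shares exon sequence with the maltase gene Mal-A1 on the opposite strand, which was called higher. Of the 65 cytochrome P450 genes tested, Cyp4e1 included, 5 were called lower, 22 higher and 38 neither way. Among the 35 listed gut digestive enzyme genes 20 were tested, of which 11 were called higher and 9 neither way.

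Several members carry or bind small hydrophobic molecules. NLaz, a lipocalin gene related to apolipoprotein D, stood at 65.9, 55.5 and 57.5 CPM in the control and at 10.9, 15.3 and 18.4 CPM in the mutant collections. Its ratio of 4.01 was among the largest of the well-counted members, and the lines were far apart. Jhbp2, of a juvenile hormone binding family, had 183, 127 and 112 CPM against 74.1, 58.1 and 66.3 CPM. The odorant-binding protein gene Obp99b had a ratio of 2.99, and 2 of the 15 other odorant-binding protein genes tested were called lower and 5 higher. The alkaline phosphatase gene Alp1 had a ratio of 2.07, and hll, at a control mean of 112.5 CPM, one of 2.75. The identifier of hll has no position in the annotation.

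The immune members sense or kill microbes. Drsl5, a drosomycin-like antifungal peptide gene, stood at 48.2, 52.7 and 56.0 CPM in the control and at 15.2, 13.3 and 22.7 CPM in the mutant collections. PGRP-SD, a peptidoglycan recognition protein gene, stood at 16.6, 13.3 and 15.3 CPM against 4.68, 5.69 and 4.26 CPM. Both genes were about equal in the 3 control collections, and their ratios were 3.06 and 3.09. PGRP-SD shares exon sequence on the opposite strand with CG7492, which changed less, from 71.9 to 58.8 CPM. GNBP3, a receptor for fungal glucans, had a ratio of 2.57. The only other drosomycin-like gene tested was called higher by edgeR's quasi-likelihood test, and of the 5 other peptidoglycan recognition protein genes 1 was called higher and 4 neither way.

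A group of 3 members acts on DNA or chromosomes. The photolyase gene phr, whose product repairs ultraviolet damage, was at 30.1, 27.5 and 27.9 CPM in the control and at 11.0, 11.8 and 12.9 CPM in the mutant collections. The spread within each line was small beside the gap between them, and the ratio was 2.40. It shares exon sequence on the opposite strand with Prosalpha1, a proteasome subunit gene that is listed at 0 in every library. Every cell uses the proteasome, and whether reads of Prosalpha1 were counted under another identifier was not tested. Rad51D, a gene of recombination repair, had a control mean of 1.46 CPM and a ratio of 2.93. Spindly, whose product links kinetochores to dynein, had a control mean of 6.76 CPM and a ratio of 2.27.

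Genes known for expression in testis or germline formed a group of low counts. Tengl3, an endonuclease G-like gene of testis, had 63, 79 and 81 reads in the control libraries and 0, 0 and 2 reads in the mutant libraries. Pooled over the libraries of each line, the ratio was 103 with an exact 95% interval of 28.2 to 856, which covers counting error only. This was the largest ratio of any member. The others were eIF4E3, TbCMF46, tut, blanks, SteXh:CG42398, SdhBL and DJ-1alpha, at control means from 1.15 to 7.57 CPM. The eIF4E3 gene encodes a testis form of a translation factor, and tut and blanks act in the male germline. TbCMF46 is named for a flagellar protein, SdhBL for a subunit of succinate dehydrogenase, and DJ-1alpha for a Parkinson disease gene in human. SteXh:CG42398 belongs to the multi-copy Stellate genes, so its count of 29, 33 and 23 reads against 8, 0 and 9 is uncertain, and its ratio moved from 4.75 to 3.17 without mutant collection 2. The list of 28 testis and sperm genes held no member. Only 3 of its genes reached 1 CPM in the control line, and the list summed to 19.3 to 36.6 CPM in the control and 24.9 to 39.6 CPM in the mutant libraries.

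The largest ratios lay among rarely counted genes. CG43755 was at 4.43, 2.83 and 6.17 CPM in the control and at 0.0660, 0.448 and 0.194 CPM in the mutant collections, a ratio of 19.0. Without mutant collection 2 that ratio was 34.5. It overlaps the exons of Plc21C on the opposite strand, which was at 83.7 CPM in the control and 93.3 CPM in the mutant line. CG4440 had 85 reads in the control and 6 in the mutant libraries together, a pooled ratio of 13.1 with an exact 95% interval of 5.77 to 36.7. CG18735 had 51 and 5 reads, a pooled ratio of 9.43 with an interval of 3.79 to 30.3, and the ratio of its means moved from 9.76 to 6.51 without mutant collection 1 and to 16.4 without mutant collection 3. CG30395 had a ratio of 8.71, which was 13.4 without mutant collection 2. CG13857 had a ratio of 5.24, which was 11.6 without mutant collection 3. The noncoding RNA lncRNA:CR44471 had a ratio of 5.40, which was 8.55 without mutant collection 2. SkpC, a Skp1-related gene, had a ratio of 7.57 that rested in part on control collection 3, at 5.23 CPM beside 1.42 and 1.23 CPM, and was 3.83 without it. Muc30E, gom and yellow-e3 lay between 1.14 and 2.88 CPM in the control line with ratios of 2.93, 2.16 and 2.11.

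One member belongs to the cell death genes, and it lay at the threshold of the rule. Grim, an antagonist of the inhibitor of apoptosis proteins, was at 2.85, 2.31 and 2.50 CPM in the control and at 1.25, 1.28 and 1.29 CPM in the mutant collections. It was the 1 member in the list of 16 cell death genes, in which edgeR's quasi-likelihood test also called skl lower, at a log2 fold change of -0.59, and the other 14 neither way. Besides grim, PGRP-SD and GstD5, no member was in any of the 20 tissue and pathway lists. Among those lists, 5 of 14 Wingless and Hedgehog targets were called lower and 9 neither way, against 8.67% of all tested genes called lower. The blastoderm list had 5 of 15 called lower and 0 higher, and the late cuticle list 5 of 20 lower and 4 higher.

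Gene type, size and chromosome were not used by the rule. Of the 131 members with a position, 115, or 87.8%, were protein coding, against 97.6% of the 9887 genes at 1 CPM or more with a position. Noncoding RNA genes made up 13, or 9.92%, against 2.06%, and pseudogenes made up 3. The coding members were short, with a median of 366 residues in the longest annotated protein against 473 for the expressed coding genes, and with medians of 1535 and 2154 exon bases. They also had fewer exons, with a median of 3 against 4. By chromosome arm, 38 members, or 29.0%, lay on 2R against 20.1% of expressed genes, and 14, or 10.7%, on X against 16.3%. Genes known only by a CG or CR number made up 44.0% of the members and 34.6% of the genes at 1 CPM or more. None of these shares was adjusted for level, and the members included many rarely counted genes, with 32 of the 134 between 1 and 2 CPM in the control line.

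**Figure D5:**
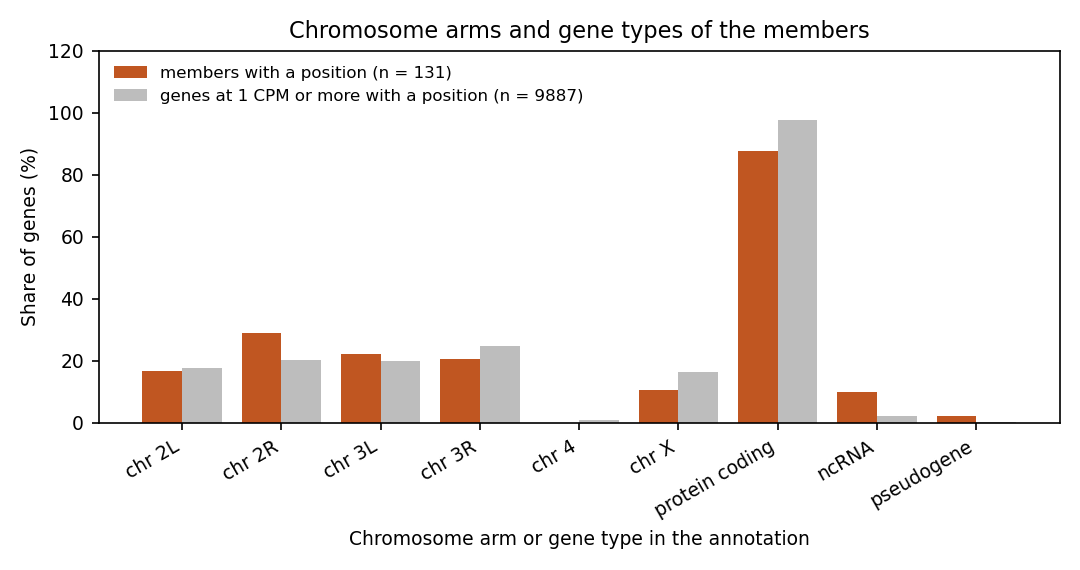
Share of members (orange) and of genes at 1 CPM or more (grey) on each chromosome arm and in each gene type of the annotation, in percent. Members have the larger share on 2R (29.0% against 20.1%) and among ncRNA genes (9.92% against 2.06%).

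Some members share exons with another gene, so that their counts depend on how strand was used. Of the 131 placed members, 26 overlap another gene's exons, 24 of them on the opposite strand. The libraries were made with a strand-specific kit, but whether the counting used the strand is not given in the sources used here, and without it the reads of the partners cannot be told apart. Among the 40 genes with the shared library order, Ama, C901, CG13362, Cyp4e1 and tw have such an opposite-strand partner.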

How the data were processed

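Raw read counts for every gene and library, in whole numbers, were deposited by the authors. They also deposited a table with log2 CPM, a log2 fold change, p-values and limma's t and B scores, of which only gene symbols were used. TopHat2 2.1.1, Bowtie2 2.3.4.0, edgeR 3.14.0 and limma 3.28.21 are named in the submitters' processing notes; the counting tool, its use of strand and the genome build are not given in the sources used here. Libraries were poly(A)-selected and strand-specific, per the labels.

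CPM was each count divided by its library's total count, times 1000000. The 134 members, the tissue and family lists and the role groups were chosen with earlier results of these data known. Genes were kept for testing by filterByExpr (minimum count 10, minimum total count 15), scaled by TMM (trimmed mean of M-values) and compared between the lines by the two-sided quasi-likelihood test of edgeR 4.0.16 in R 4.3.3. P-values were adjusted after Benjamini and Hochberg over all 10526 genes. Replicates are separate embryo collections of a single stock per line. The replicate numbers of the titles were not used as a block, since deviations of equally numbered collections did not go together (correlations -0.014, -0.016 and 0.015). Positions, exon lengths and gene types came from Ensembl release 115 of BDGP6, which matched 131 of the 134 identifiers. The symbols hll, CG11966 and xmas-1 came from the authors' table.

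Named were all members with a symbol other than a CG, CR or noncoding RNA number, the 10 highest by control CPM, the 10 with the largest ratio, those within 20 kb of another member or in a fixed list, those at the threshold, and sgg. A few other genes, such as relatives of members and genes with overlapping exons, were named after their values were seen. For this ranking the mutant mean was held at no less than 3 reads per library. For members with 3 reads or fewer in every mutant library, reads were pooled per line and the ratio given an exact (Clopper-Pearson) 95% interval for counting error. Alternatives were other scalings, filters and thresholds, DESeq2 1.42.0, limma-voom (limma 3.58.1) and leaving out each library. Promoter sequences were not analysed here.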

Additional observations from a re-analysis of the deposited data

How the results depend on the processing

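The number of genes that met the rule was 134. It was 112 with TMM-scaled CPM and 112 with DESeq2 size factors, all among the 134, and 180 or 102 with a minimum of 0.5 or 2 CPM. It was 148 when the lines could overlap, 421 with a ratio of 1.5 and 33 with a ratio of 3. Leaving out one library gave 106 to 179 genes, and 74 members met the rule in all 6 such sets. The count of all genes called by edgeR's quasi-likelihood test was 2350, and 2283 to 2540 with other scalings, filters or tools. Leaving out one library gave 1295 to 2146 calls, and the counts moved by over 1.5 times without control collection 2 (1499), mutant collection 1 (1395) or mutant collection 3 (1295). Of the members, 113 were called lower, 106 to 118 under the other settings and 72 to 98 without one library, the lowest without mutant collection 3. With the replicate number as a block, 1994 genes and 100 members were called. Of 1071 ratios of the 134 members recomputed under other scalings or without a library, 0 changed direction. Without a library none could, since the rule kept only genes whose lines did not overlap. Of the 1071 ratios, 941 stayed at 2-fold or more and 16 moved by more than 1 SD, and the cause was not tested. Members near another member numbered 24 within 10 kb and 42 within 50 kb. The share of well-counted members with both control collection 3 and mutant collection 2 lowest was 63.5%, and under settings chosen after seeing the data 61.9% (TMM), 63.5% (DESeq2 size factors) and 77.8% (genes at 50 CPM or more). A count of 0 allows a level of up to 0.154 to 0.237 CPM, depending on the library, by counting error alone.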

Other observations

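Some members had values close together within each line. CG8654 stood at 20.4, 19.0 and 20.2 CPM in the control and at 9.04, 8.50 and 8.20 CPM in the mutant collections. The noncoding RNA lncRNA:CR44042 stood at 21.1, 16.7 and 19.3 CPM against 7.32, 7.99 and 7.68 CPM. The pseudogene CR40190 stood at 15.7, 15.1 and 14.7 CPM against 6.33, 5.75 and 6.78 CPM. Of the 3 genes, CR40190 had both control collection 3 and mutant collection 2 as the lowest of their line. They were picked after their values were seen. Of the 222 lncRNA genes tested, edgeR's quasi-likelihood test called 13 lower and 12 higher. The 222 include the 12 lncRNA members, which the rule chose for being lower, so part of the lower calls are members.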
